A study of Mus musculus with 7 samples.

Results

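Potassium channels are built from pore-forming subunits, which carry the current, and auxiliary subunits, which set their gating and their place in the cell. Of the 54532 genes in the deposited count table, 90 are the potassium channel subunits described here: protein-coding genes whose symbol starts with Kcn, in 21 subfamilies. Of 94 such genes, Kcne1, Kcnq1, Kcnj10 and Kcnj16 are left out by the rule that chose the members. RNA was sequenced from cochlear epithelium, the lining of the hearing organ, of untreated mouse embryos at embryonic day 16. The 4 knockout libraries carry the genotype label of a knockout of Brg1, the chromatin-remodelling ATPase encoded by Smarca4, and the 3 others are controls. The sources used here do not give how Brg1 was deleted, in which cells or with what driver, nor how many embryos each library holds. As no label ties a replicate to its own animal, p-values here describe the spread between libraries, which may be technical.

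Voltage-gated pore subunits open when the membrane depolarises and end or space action potentials. Calcium-activated channels link the potassium current to calcium entry, inward rectifiers hold the resting potential, and tandem-pore subunits carry the background leak. In the cochlea, potassium is the ion that enters hair cells during transduction, and potassium channels then return it and set the firing of the neurons that innervate them.

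The libraries held between 16097811 and 18871636 counts, so that the floor of 3 counts used here corresponds to 0.159 to 0.186 CPM (counts scaled by library total and TMM factor). Values per library are given in the order of the replicate numbers, 1 to 4 for knockout and 1 to 3 for control. Means in CPM or FPKM stand with their SD (4 knockout and 3 control libraries), and log2 fold changes, knockout minus control, with their SE. Smarca4 measured 281, 239, 228 and 250 CPM in the knockout libraries and 372, 356 and 376 CPM in the controls, and was called lower (log2 fold change -0.56 ± 0.09 SE, edgeR adjusted p = 0.00338). Genes that mark the cochlear floor and its supporting cells summed to 2540 to 3130 CPM in knockout and 3080 to 3590 CPM in control, and 0 of the 16 was at 0 in every library. Markers of other cells were also present, with periotic mesenchyme at 3110 to 4080 and 3200 to 3550 CPM and spiral ganglion neurons at 919 to 1270 and 2240 to 2500 CPM. In whole-tissue RNA, fewer cells of a type and less RNA per cell cannot be told apart. The fractions of the deposited values divide the libraries into 2 sets. The larger set holds knockout replicates 1, 2 and 3 with control replicates 1 and 2. The smaller set holds knockout replicate 4 with control replicate 3. Both libraries of the smaller set, and no others, carry the number 4 in their descriptions. No label says what that number or the division stands for.

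Many potassium channel genes fell in the Brg1 knockout, and 1 rose. Summed over the 90 genes, their transcripts made up 383 ± 30.3 CPM in knockout (mean ± SD, n = 4) against 563 ± 27.5 CPM (n = 3) for control libraries. Of the 70 genes with enough counts to test, 20 fell and 1, Kcnj4, rose (edgeR, adjusted p below 0.05 over 17341 genes), while 49 did not pass. The 20 that fell are 28.6% of those tested, beside 4.87% of all genes tested. The 1 that rose is 1.43%, beside 1.94% of all genes, and in either direction the shares were 30.0% and 6.82%. The median log2 fold change of the tested members was -0.38, against 0.02 over all tested genes, and their values ran from -2.56 for Kcnk3 to 1.71 for Kcnj4. The 49 that did not pass ran from -1.85 for Kcna1 to 0.96 for Kcne4. Without control replicate 1, 10 of the 20 kept their call.

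Overlap between the groups was read from the same values. In 27 of the 70 tested members (38.6%) each knockout library lay below each control library, beside 11.5% of all tested genes, and in 5 (7.14%) each lay above, beside 9.27%. The groups did not overlap in any of the 21 called members. They also did not overlap in 7 that were lower without passing the test (among them Kcnab1, Kcnb2, Kcng1, Kcnq5, Kcns1 and Kcnu1) or in 4 that were higher without passing it (Kcnab3, Kcnj14, Kcnj2 and Kcnk2). The 20 members that fell summed to 116 to 165 CPM in knockout and 298 to 354 CPM in control. The other 70 members summed to 229 to 262 CPM in knockout and 240 to 249 CPM in control. The 20 were picked by the test on these same libraries, so the sums follow from that choice and are no separate evidence. Knockout means of the 20 were 16.6% to 71.0% of the control means.

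**Figure D1:**
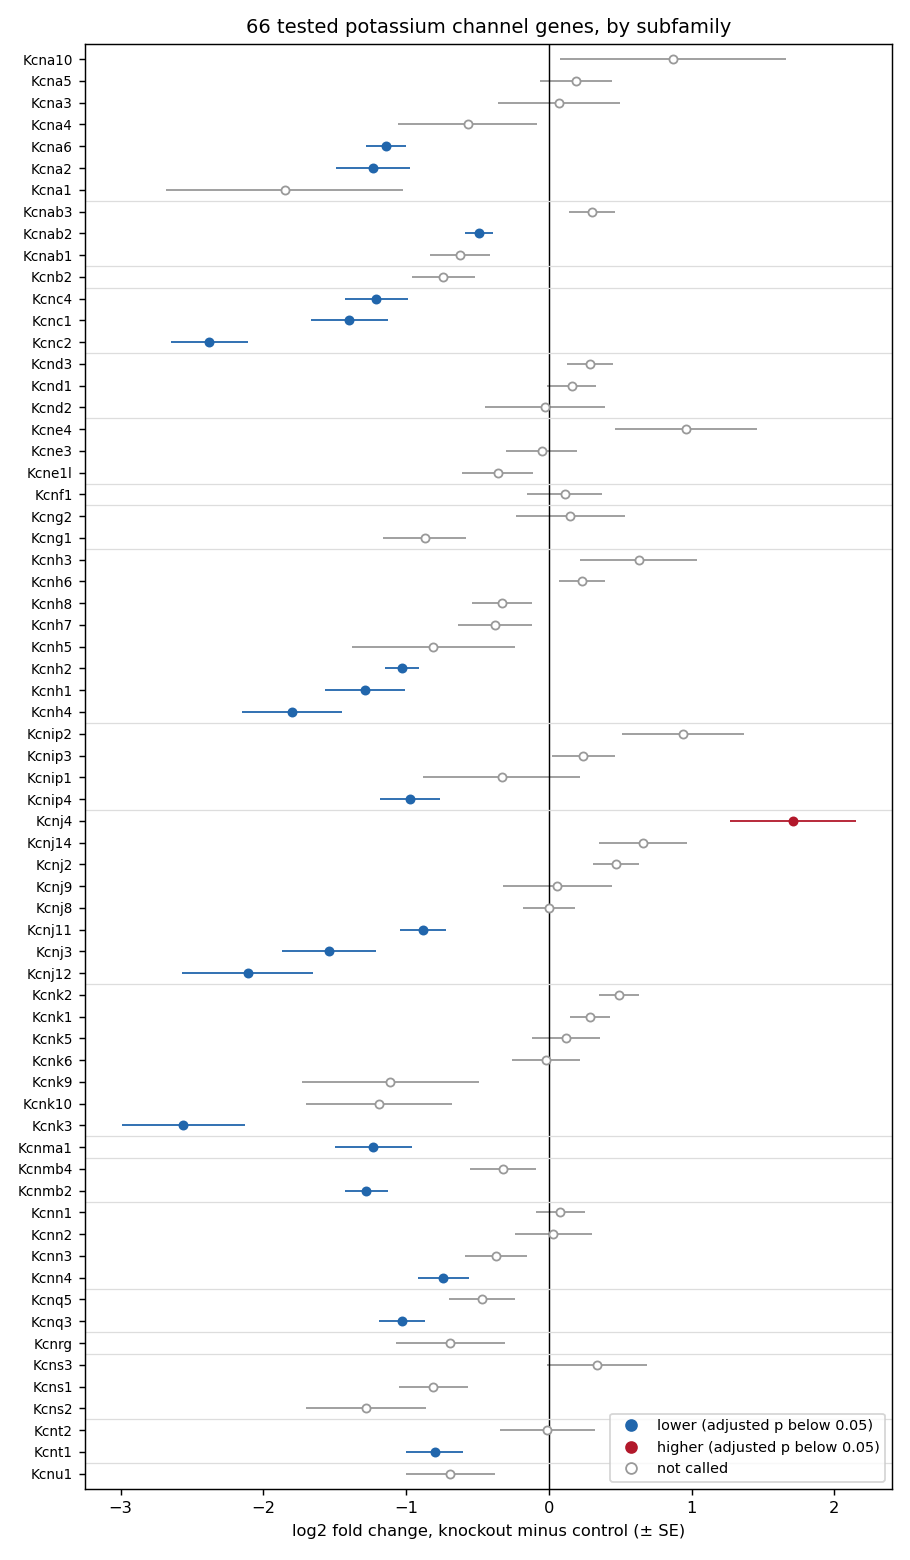
The plot of log2 fold change (x axis, knockout minus control) shows 66 of the 70 tested potassium channel genes by subfamily, with points for the estimate, bars for 1 SE on each side, and colour for the call by edgeR. The 19 genes called lower in the plot are spread over 12 of the 21 subfamilies, and Kcnj4 alone is called higher.

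Markers of spiral ganglion neurons and of glia also summed to less in each knockout library than in each control. Over all genes tested, 4.87% fell and 1.94% rose, shares to set beside each count of markers here. Of 21 neuron markers, 11 fell and 0 rose, with a median log2 fold change of -1.31. Of 12 tested markers of Schwann and satellite glia, 4 fell and 0 rose (median -0.42), their sum was 717 to 912 CPM in knockout and 1190 to 1280 CPM in control, and Pmp2 was at 0 in every library. A large part of both sums came from genes that were not called. The glia sum includes Sox10 (366 ± 61.9 CPM in knockout and 449 ± 58.4 in control) and Erbb3 (209 ± 12.7 and 252 ± 9.33). The neuron sum includes Gata3 (249 ± 21.3 and 286 ± 14.4) and Isl1 (157 ± 5.86 and 172 ± 6.22). Among the knockout libraries, the 20 fallen channel genes summed to 149, 116, 165 and 130 CPM in replicates 1 to 4, and the neuron markers to 1270, 919, 1230 and 984 CPM. The glia markers summed to 912, 717, 887 and 799 CPM in the same libraries. Replicate 2 was the lowest of the 4 for each of these sums, and 14 of the 20 channel genes had their lowest knockout value in it. Of 19 hair cell markers 3 rose and 0 fell, with 17 above 0, 2 below 0 and a median log2 fold change of 0.69. Their sums were 420 to 481 CPM in knockout and 423 to 437 CPM in control. These sums include Pvalb, which was not called, at 24.1 ± 11.4 CPM in knockout and 80.6 ± 9.90 CPM in control. Of the 16 floor and supporting cell markers 3 rose and 4 fell (median -0.03). The part of neurons or glia in the channel result was not tested.

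Of 28 tested voltage-gated subunits that conduct on their own, 10 fell (35.7%) and 0 rose, with a median log2 fold change of -0.52. The share that fell was 37.5% of the calcium-, sodium- or pH-gated pore subunits and of the inward rectifiers, 23.1% of auxiliary and regulatory subunits and 14.3% of tandem-pore subunits. In the Kcnc subfamily, whose fast channels let neurons fire at high rates, 3 members fell, and the summed deposited FPKM (fragments scaled by gene length and library total) were 2.62 to 4.22 in knockout and 7.19 to 8.95 in control. Kcnc2 (ENSMUSG00000035681, chromosome 10, 112271121 to 112467024, mm10, forward strand) was at 2.89, 1.6, 2.59 and 4.28 CPM in the knockout libraries and 17.2, 15.1 and 11.8 CPM in the controls. Its highest knockout library was far below its lowest control, and the knockout mean was 19.3% of the control mean (2.84 ± 1.10 against 14.7 ± 2.72 CPM, log2 fold change -2.38 ± 0.27, edgeR adjusted p = 9.55e-04). Kcnc1 (chromosome 7, 46396497 to 46438704, forward strand) was at 4.20, 1.77, 3.88 and 3.09 CPM in knockout and 10.4, 7.44 and 7.69 CPM in control (-1.40 ± 0.27, edgeR adjusted p = 0.00958). Kcnc4, which gives a current that inactivates quickly, was at 4.80, 3.42, 6.72 and 4.69 CPM against 13.4, 9.54 and 11.0 CPM (-1.21 ± 0.22, edgeR adjusted p = 0.00734). The groups were well apart for all 3.

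The sequence before the start of 4 called genes is shown for the spread in CpG content among them, 3 that fell and the 1 that rose. Each stretch is the 100 bases upstream of the RefSeq start on GRCm38.p6, read 5′ to 3′ on the gene's strand, with CG dinucleotides in capitals and 0 bases in annotated GENCODE exons. They lie at chr10:112271021-112271120 (forward strand, 2 CG) for Kcnc2, chr7:46396368-46396467 (forward, 14 CG) for Kcnc1, chr3:107101467-107101566 (forward, 12 CG) for Kcna2 and chr15:79505242-79505341 (reverse, 16 CG) for Kcnj4. The RefSeq start of Kcna2 lies inside the span that the table gives the gene. Such stretches of other fallen genes, not shown, held fewer CG than those of Kcnc1 and Kcna2: 5 for Kcnh2, 4 for Kcnip4 and 2 each for Kcnj12 and Kcnn4.
Kcnc2: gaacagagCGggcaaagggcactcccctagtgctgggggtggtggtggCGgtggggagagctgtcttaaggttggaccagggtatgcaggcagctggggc
Kcnc1: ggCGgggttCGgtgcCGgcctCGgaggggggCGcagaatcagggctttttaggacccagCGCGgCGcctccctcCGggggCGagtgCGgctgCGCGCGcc
Kcna2: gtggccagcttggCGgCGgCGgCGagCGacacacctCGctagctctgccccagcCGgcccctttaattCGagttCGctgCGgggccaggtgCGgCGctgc
Kcnj4: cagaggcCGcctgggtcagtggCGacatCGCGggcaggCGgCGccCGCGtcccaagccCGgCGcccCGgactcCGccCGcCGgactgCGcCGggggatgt
Among the windows of 300 bases (250 before the start and 50 after), 67 of the 90 members had an entry, and 15 of the 20 that fell. These 15 held between 4 and 41 CG with a median of 17, beside a median of 20 over the 12012 tested genes with an entry. The GC box GGGCGG, searched on both strands, was in 66.7% of the 15 and 63.1% of tested genes, and the E-box CANNTG in 66.7% and 63.9%. The TATA letters TATAAA and the cyclic AMP element TGACGTCA were in 0 of the 15, beside 7.2% and 3.2% of tested genes. Some of the 15 RefSeq starts lie well inside the span of the gene: by 239248 bases for Kcnip4, 43240 for Kcnj12, 22013 for Kcnh2 and 10286 for Kcnma1. Their windows need not be those of the main start. With 15 promoters these shares are a description of the windows, not of any factor's binding.

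In the Kcnq subfamily, which gives the slow M-type current that restrains repetitive firing, the tested members had a median log2 fold change of -0.75. Kcnq3 was at 13.0, 9.73, 11.0 and 10.1 CPM in knockout and 27.9, 18.9 and 20.5 CPM in control (-1.03 ± 0.16, edgeR adjusted p = 0.00325). The highest knockout library of Kcnq3 was below its lowest control. Kcnq5, which can also join M channels, was at 4.5 ± 1.14 and 6.24 ± 0.723 CPM (-0.47 ± 0.23, edgeR adjusted p = 0.257).

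The Kcna subfamily holds low-threshold channels found at axon initial segments and beside nodes of Ranvier. Kcna6 (ENSMUSG00000038077, chromosome 6, 126708329 to 126740674, reverse strand) was at 26.1, 18.3, 26.6 and 19.4 CPM in knockout and 53.7, 43.2 and 52.9 CPM in control, with no overlap (-1.14 ± 0.14, edgeR adjusted p = 0.00142). Kcna2, the subunit typical of myelinated axons, was at 4.58, 3.21, 8.26 and 5.70 CPM against 14, 12.1 and 12 CPM (-1.23 ± 0.26, edgeR adjusted p = 0.0161). Kcna6 shares its locus with the antisense gene Gm26673, which was also called lower, and whether the authors counted by strand is unstated in the sources used here. Kcna1, which joins Kcna2 in axonal channels, ranged from 0 to 1.85 CPM in knockout and from 1.69 to 4.0 CPM in control and did not pass (-1.85 ± 0.83, edgeR adjusted p = 0.250). Kcna10, a member found in hair cells, was near the floor, from 0.436 to 1.6 CPM in knockout and from 0 to 0.999 CPM in control (0.87 ± 0.79, edgeR adjusted p = 0.587). The cytoplasmic beta subunit Kcnab2, which binds Kcna channels and aids their trafficking to axons, also fell: it was at 21.9, 23.1, 24.3 and 20.3 CPM in knockout and 30.1, 31.6 and 32.8 CPM in control (-0.49 ± 0.10, edgeR adjusted p = 0.0109). It overlaps Nphp4 on the other strand, which had a log2 fold change of 0.04 and was not called.

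In the Kcnh subfamily, of 8 members tested 3 fell and 0 rose (median -0.60). Kcnh2, the ERG channel whose slow deactivation shapes repolarisation, was at 15.2, 11.8, 14.7 and 12.6 CPM in knockout and 29.3, 27.2 and 26.4 CPM in control (-1.03 ± 0.12, edgeR adjusted p = 0.00102). Its libraries differed little within each group, at 13.6 ± 1.65 and 27.6 ± 1.5 CPM. Kcnh4, of the ELK type, was at 1.64, 1.34, 1.48 and 0.475 CPM against 5.33, 3.11 and 4.47 CPM (-1.80 ± 0.35, edgeR adjusted p = 0.0108). Kcnh1, the EAG channel, was at 1.2, 1.07, 0.863 and 1.19 CPM against 3.19, 2.77 and 2.02 CPM (-1.29 ± 0.28, edgeR adjusted p = 0.0170), and its span overlaps Hhat on the other strand, itself at a log2 fold change of -0.07 and not called. Kcnh6, another ERG-type member and the most abundant of the subfamily per length, was at 21.4, 29.5, 26.6 and 32.1 CPM in knockout and 23.5, 27.5 and 19.2 CPM in control. Its groups overlapped and it did not pass (0.23 ± 0.16, edgeR adjusted p = 0.443).

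Kcnd subunits carry the A-type current in dendrites, and Kcnip proteins are their calcium-binding partners. Of 3 Kcnd members 0 were called by edgeR or DESeq2, and 0 had an unadjusted p below 0.05. The most abundant, Kcnd3, had a log2 fold change of 0.29 ± 0.16 (edgeR adjusted p = 0.357). Kcnip4, a Kcnip protein of neurons, was at 6.71, 4.12, 6.78 and 5.82 CPM in knockout and 13.9, 9.43 and 11.0 CPM in control (-0.97 ± 0.21, edgeR adjusted p = 0.0161). Its span holds 5730480H06Rik on the other strand, which had a log2 fold change of 0.06 and was not called. Of the 10 modifying subunits of the Kcnf, Kcng, Kcns and Kcnv subfamilies, which do not conduct alone, 6 were tested and 0 were called by edgeR, while 3 were lower at an unadjusted p below 0.05 and 1 was called by DESeq2. Log2 fold changes were 0.11 ± 0.26 for Kcnf1, -0.87 ± 0.29 for Kcng1 (edgeR adjusted p = 0.0994) and -0.81 ± 0.24 for Kcns1. The last passed with DESeq2 (adjusted p = 0.0329) but not with edgeR (adjusted p = 0.0681).

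**Figure D2:**
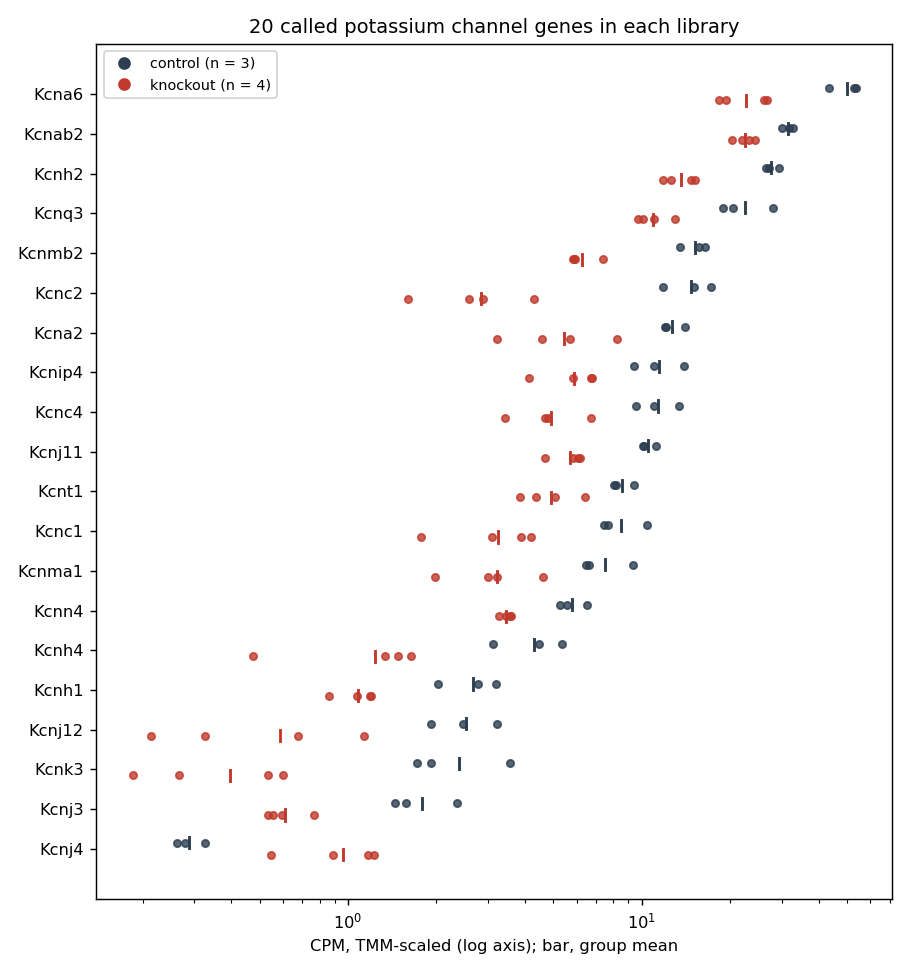
The plot gives CPM on a log axis for 20 of the 21 called potassium channel genes, 1 gene per line in the order of control means, with a point per library (4 knockout, 3 control) and a bar at the mean of each group. The groups do not overlap in any of the 20, and Kcnj4 is the gene whose knockout points lie to the right.

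Of the calcium-, sodium- and pH-gated pore subunits, 3 of 8 tested fell and 0 rose. Kcnma1, the large-conductance calcium-activated (BK) channel of hair cells and neurons, was at 3.0, 1.98, 4.62 and 3.21 CPM in knockout and 9.36, 6.44 and 6.60 CPM in control (-1.23 ± 0.27, edgeR adjusted p = 0.0179). Its auxiliary subunit Kcnmb2 (ENSMUSG00000037610, chromosome 3, 31902507 to 32200180, forward strand), which inactivates the BK current, fell too: 5.89, 5.94, 7.40 and 5.82 CPM in knockout and 16.4, 15.6 and 13.5 CPM in control (-1.28 ± 0.15, edgeR adjusted p = 0.00102). The groups were apart for pore and auxiliary subunit alike. Kcnmb4, the BK subunit typical of neurons, had a log2 fold change of -0.32 ± 0.23 and did not pass (edgeR adjusted p = 0.466), and Kcnmb1 had 0 to 2 counts in each library and was not tested. Kcnn4, the intermediate-conductance calcium-activated channel, was at 3.44, 3.26, 3.58 and 3.56 CPM in knockout and 5.28, 5.55 and 6.49 CPM in control (-0.74 ± 0.18, edgeR adjusted p = 0.0315). Kcnt1, the sodium-activated channel, was at 4.36, 3.85, 6.41 and 5.05 CPM against 9.41, 8.16 and 8.02 CPM (-0.80 ± 0.20, edgeR adjusted p = 0.0331). Kcnn4 was called in 0 of the 7 fits that left out 1 library, and Kcnt1 in 1. Kcnn2, the small-conductance channel at the efferent synapse of hair cells, was at 3.17 ± 0.644 and 3.10 ± 0.971 CPM, and the interval of its log2 fold change ran from -0.56 to 0.63 (edgeR adjusted p = 0.963). Kcnn1, the most abundant of the subfamily per length, had a log2 fold change of 0.08 ± 0.17, and Kcnu1, the channel known from sperm, one of -0.69 ± 0.31, and neither was called.

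Inward rectifiers went both ways. Of 8 tested Kcnj members 3 fell and 1 rose, and their median was 0.03. Kcnj11, the pore of the ATP-sensitive channel, was at 6.06, 5.83, 6.17 and 4.69 CPM in knockout and 10.2, 10.1 and 11.2 CPM in control (-0.88 ± 0.16, edgeR adjusted p = 0.00674). Kcnj3, a G-protein-gated subunit, was at 0.764, 0.535, 0.555 and 0.594 CPM against 2.35, 1.44 and 1.58 CPM (-1.54 ± 0.33, edgeR adjusted p = 0.0161). Kcnj12, a strong inward rectifier, was at 0.327, 0.214, 0.678 and 1.13 CPM against 2.46, 3.22 and 1.91 CPM (-2.11 ± 0.46, edgeR adjusted p = 0.0178). The 3 fell at different levels, with control means between 1.79 CPM for Kcnj3 and 10.5 CPM for Kcnj11, and the groups of each were apart. Kcnj4 (ENSMUSG00000044216, chromosome 15, 79483714 to 79505241, reverse strand), a strong rectifier of brain, rose from few counts: 10, 23, 19 and 15 counts in knockout replicates 1 to 4 and 5, 5 and 6 in control replicates 1 to 3. In CPM these were 0.545, 1.23, 1.17 and 0.891 against 0.261, 0.278 and 0.327 (1.71 ± 0.44, edgeR adjusted p = 0.0395). It was called in 1 of 7 fits with a library left out, and DESeq2 gave an adjusted p of 0.0542. Kcnj2, the strong rectifier that sets the resting potential of many cells, was at 9.77, 9.79, 9.56 and 8.44 CPM in knockout and 5.64, 7.33 and 7.31 CPM in control, with no overlap, but did not pass (0.47 ± 0.16, edgeR adjusted p = 0.108). Kcnj8, the ATP-sensitive pore of pericytes, was at 9.35 ± 1.23 and 9.37 ± 2.09 CPM (edgeR adjusted p = 0.993), and Kcnj13 held 2 to 12 counts per library and was not tested.

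Of 14 tandem-pore (Kcnk) members 7 were tested, and 1 fell. Kcnk3 (ENSMUSG00000049265, chromosome 5, 30588170 to 30625271, forward strand), an acid-sensitive leak channel, had the lowest log2 fold change of the members, -2.56 ± 0.43 (edgeR adjusted p = 0.00485), on 0.600, 0.267, 0.185 and 0.535 CPM in knockout and 1.72, 3.55 and 1.91 CPM in control. These were 11, 5, 3 and 9 counts against 33, 64 and 35. Kcnk1, a weakly rectifying leak channel and the most abundant member per length, was at 31.6, 41.5, 39.7 and 30.0 CPM in knockout and 24.1, 30.1 and 33.2 CPM in control. Its groups overlapped and it did not pass (0.29 ± 0.14, 95% confidence interval -0.02 to 0.61, edgeR adjusted p = 0.269). Kcnk2, a mechanosensitive leak channel, was at 12, 11.8, 14 and 12.9 CPM against 9.56, 8.55 and 9.0 CPM, with each knockout library above each control (0.49 ± 0.14). It passed with DESeq2 (adjusted p = 0.0214) and not with edgeR (adjusted p = 0.0552). Of the single-pass Kcne auxiliary subunits, 3 of 4 were tested, 0 were called by edgeR or DESeq2 and 0 had an unadjusted p below 0.05. Kcne3, which makes its partner pore conduct at all voltages, had a log2 fold change of -0.05 ± 0.25. Kcnrg, a regulator of Kcna channels, had one of -0.69 ± 0.38, was not called and overlaps Dleu2 on the other strand.

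Per gene length, potassium channels of the cochlear epithelium libraries were led by Kcnk1. Its deposited FPKM was 12.7 ± 1.85 in control and 15.5 ± 2.59 in knockout, which was 11.7% and 18.3% of the summed FPKM of the 90 members. By the mean over the 7 libraries, which pools both groups, the next were Kcnh6 with 6.44 ± 1.18 FPKM in control and 7.49 ± 1.17 in knockout, and Kcna6 with 8.20 ± 0.984 and 3.69 ± 0.742. After them came Kcnab2 (5.51 ± 0.154 and 3.89 ± 0.334), Kcnh2 (5.56 ± 0.385 and 2.72 ± 0.349), Kcnj8 (3.58 ± 0.756 and 3.56 ± 0.490) and Kcnmb2 (4.73 ± 0.538 and 1.94 ± 0.239). Within control the order differed, with Kcna6 above Kcnh6 and Kcnmb2 above Kcnj8. There Kcnk1 stood above Kcna6 by more than their spread, whereas Kcnab2 and Kcnh2 lay within each other's spread. The summed FPKM of the members were 79.9 to 92.2 in knockout and 106 to 112 in control. Of the 28 members with a mean of 1 FPKM or more, 10 fell, and the median of the mean FPKM was 0.949 for the members that fell and 0.611 for tested members that were not called.

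**Figure D3:**
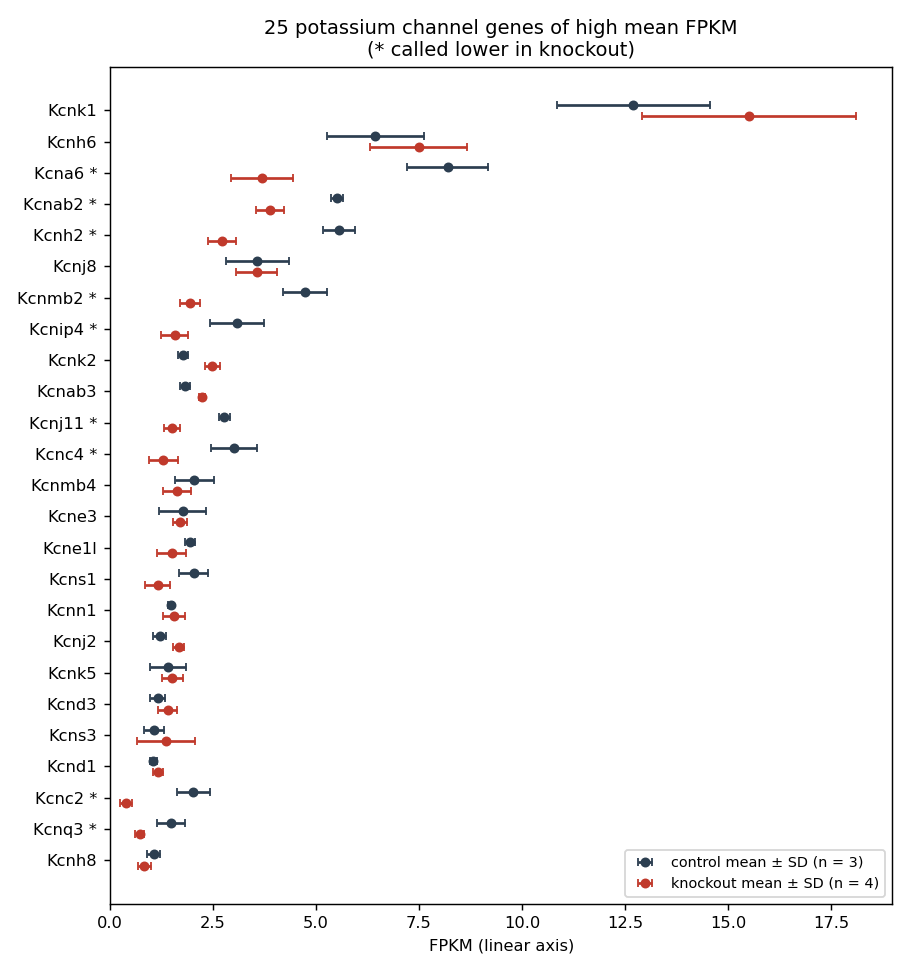
The plot gives the deposited FPKM on a linear axis for 25 abundant potassium channel genes, ordered by their mean over the 7 libraries, with points at the mean of each group and bars for the SD (4 knockout, 3 control). Kcnk1 is highest in both groups, and the 9 genes marked as called lower have knockout means to the left of their control means.

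Within the larger set of libraries alone (3 knockout against 2 control), 71 members were tested, 10 fell and 0 rose, which are shares to set beside 2.49% and 1.25% of all genes tested there. Among the 10 were Kcna6, Kcnc2, Kcnh1, Kcnh2, Kcnh4, Kcnj12, Kcnk3, Kcnmb2 and Kcnq3, with edgeR adjusted p between 0.00301 for Kcnc2 and 0.0413 for Kcnh4. Since the groups of the called members do not overlap, the sign within each set follows from that and is no separate evidence; the sizes are given as a description, with the log2 ratio of CPM plus 0.5 for the smaller set, where 1 library stands against 1. For Kcnj12 (-2.81 and -0.57), Kcnc2 (-2.78 and -1.37) and Kcnk3 (-2.87 and -1.22) the value was lower in the larger set, and for Kcnh4 (-1.51 and -2.35), Kcna6 (-1.04 and -1.43), Kcnj11 (-0.75 and -1.17) and Kcnab2 (-0.42 and -0.68) in the smaller. The added 0.5 draws ratios of low genes such as Kcnj12 and Kcnk3 towards 0. With the set as a term in the fit of 7 libraries, 18 of the 20 kept their call.

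**Figure D4:**
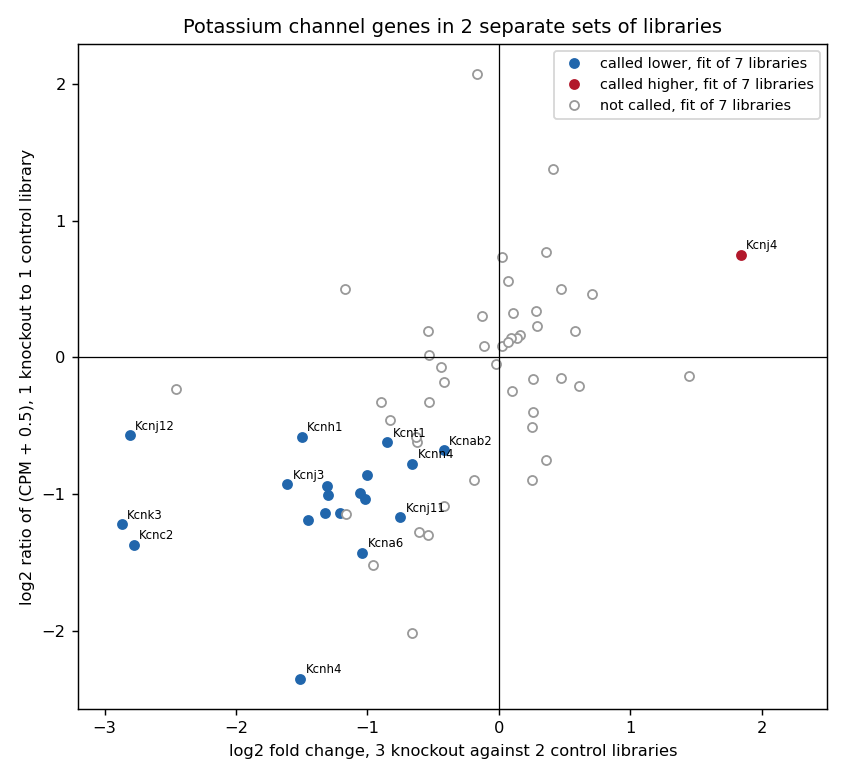
Each point is a tested potassium channel gene, with its log2 fold change in the larger set (x axis, 3 knockout against 2 control libraries) and its log2 ratio of CPM plus 0.5 in the smaller set (y axis, 1 knockout against 1 control library). The side of 0 on which the called genes lie follows from their groups not overlapping, and their distance from 0 differs between the axes, as for Kcnj12 (-2.81 and -0.57) and Kcnh4 (-1.51 and -2.35).

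DESeq2 called each of the 20 members that fell. Leaving out control replicate 1 left 10 of the 20 called, whereas each fit without one of the other libraries lost between 2 and 4 of the 21 calls. Control replicate 1 held the highest control value of 15 of the 20. Of the 20, 10 were called in each of the 7 fits with a library left out, among them Kcna6, Kcnab2, Kcnc2, Kcnc4, Kcnh2, Kcnj11, Kcnk3, Kcnmb2 and Kcnq3. The threshold lay between Kcnj4, the last member called, and Kcnk2 with an adjusted p of 0.0552, and Kcnn4 and Kcnt1 lay just inside it.

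Genes for proteins that bind, place or share currents with these channels were read beside them. Of 31 such partner genes 28 were tested, 11 fell and 0 rose, beside 4.87% and 1.94% of all genes tested, with 25 below 0 and a median log2 fold change of -0.42. Cntn2, which clusters Kcna channels beside the nodes of Ranvier, fell from 18.1 ± 2.64 to 4.42 ± 1.51 CPM (-2.04 ± 0.25, edgeR adjusted p = 0.00126). Lrrc55, an auxiliary subunit of the BK channel, fell from 21 ± 0.932 to 7.35 ± 1.77 CPM (-1.52 ± 0.18, edgeR adjusted p = 0.00109), beside the falls of Kcnma1 and Kcnmb2. Hcn4, a cation channel of the pacemaker current, fell by 1.10 ± 0.15 on the log2 scale, Dpp6, an auxiliary of Kcnd channels, by 1.06 ± 0.25 and Lgi1, a secreted modulator of Kcna channels, by 0.95 ± 0.17. Lgi2 (-0.70 ± 0.18), Dlg2 (-0.73 ± 0.16), the scaffold that holds Kcna channels, Ank3 (-0.58 ± 0.12), the anchor of Kcnq channels at the axon initial segment, Ank2 (-0.45 ± 0.10), Adam22 (-0.42 ± 0.09) and Calm3 (-0.39 ± 0.10), a calmodulin, also fell. Cntn2, Lrrc55, Hcn4 and Lgi1 were called in each of the 7 fits that left out 1 library. Calm3 was called in 1 of these fits, Lgi2 in 2, Dpp6 in 3 and the rest of the 11 in 4 to 6. With the set as a term, Calm3, Lgi2 and Dpp6 lost their call. Abcc8, the sulphonylurea receptor that pairs with Kcnj11, had a log2 fold change of -0.42 and was not called. In the larger set 5 of the partners fell, beside 2.49% of all genes tested there: Cntn2, Lrrc55, Hcn4, Ank3 and Lgi4. Of these, Lgi4 was not among the 11, with an edgeR adjusted p of 0.0609 in the fit of 7 libraries.

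Of the 20 members without enough counts to test, 4 (Kcna7, Kcnj1, Kcnk15 and Kcnk16) were at 0 in every library and 12 were at or under 3 counts in every library. The highest count among the 20 was 20, in Kcnj15, at 1.05 CPM in control replicate 1. Differences between the groups were not tested for these 20.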

How the data were processed

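RNA-seq of total RNA from 4 Brg1 knockout and 3 control libraries of cochlear epithelium was analysed. Per the submitters' processing notes, the build was mm10, and the tools include HISAT2 2.0.5, fastp, featureCounts 1.5.0-p3, CASAVA 1.8 and DESeq2 1.20.0. Their settings, and any use of strand in counting, were not given in the sources used here. Values in the deposited count table are estimated counts: in each of 21368 genes above 0 in every library, values lay within 0.001 of a multiple of 1/12, and in the 17795 whose fractions differ the libraries split into the same sets of 5 and 2. What was done to the counts before deposit is not recorded in the labels, and it could change log fold changes. They were rounded to whole numbers for every test, as the design allowed. The deposited FPKM values, which times gene length and 1 implied total per library equal the rounded counts, serve only to describe levels.

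Genes were tested with edgeR 4.0.16 (R 4.3.3), by a robust quasi-likelihood F-test of knockout minus control with TMM factors, the filterByExpr filter by group and no covariates, with Benjamini-Hochberg adjusted p below 0.05 over 17341 genes. SE were derived from F. The common biological coefficient of variation was 14.9% with 5 residual degrees of freedom, a number that takes off nothing for any adjustment made before deposit. The fitting script was tested on simulated data. DESeq2 1.42.0 was the other tool. Genes named are each called member, the most abundant tested member per subfamily, a list of cochlear channels, and each called partner. Some further members are named after their values were seen. Of the members, 4 are counted in the totals but not reported here by name or drawn in the figures. The members and lists were chosen with earlier results of these data known. The library titled control replicate 3 carries the number 4 in the table and in its description. Promoter sequences are from RefSeq on GRCm38.p6, the assembly that mm10 names. Of 67 member promoters, 53 have the first 40 bases after the start in a GENCODE transcript of their gene. The floor and counts cover counting error only.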

Additional observations from a re-analysis of the deposited data

Results flagged for a closer look

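Of 43 measures checked for a library that stands apart from the rest of its group, 2 had one, and chance alone gives about 1 in 20. Both were in knockout replicate 3. Kcnmb2 was at 7.40 CPM there and between 5.82 and 5.94 CPM in the other knockout libraries. Kcnn2 was at 4.13 CPM there and between 2.73 and 2.94 CPM in the others.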

How the results depend on the processing

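Across 15 alternatives, the 21 called members changed direction in 0 of 314 comparisons and lost their call in 58. The alternatives refit the same libraries or a part of them, and the groups of the 21 do not overlap. Their unchanged direction is therefore no separate evidence. The count of members that fell (20) was 10 in the larger set alone and 12 with a replicate block by description number, and ranged from 10 to 20 with a library left out. Each replicate block keeps only libraries whose number occurs in both groups. The block by description number thus drops knockout replicate 3, and the block by title number drops knockout replicate 4. Blocking and the dropped library cannot be told apart in these fits. The count that rose (1) was 0 in the larger set, with the set as a term and with either replicate block. It ranged from 0 to 1 with a library left out. It was also 0 with a filter of 1 CPM in at least 3 libraries, which removed Kcnj4 before testing. Calls lost among the 21 were 11 without control replicate 1, 4 without control replicate 2, 3 without control replicate 3, and 2, 3, 2 and 3 without knockout replicates 1 to 4. The median log2 fold change of -0.38 was -0.48 with the 1 CPM filter and -0.49 with the replicate block by description number. It ranged from -0.51 (without knockout replicate 3) to -0.36 with a library left out. Over all genes, the 337 that rose became 555 with DESeq2, 219 in the larger set, 207 with the set as a term, and 179 and 74 with the replicate block by title and by description number (106 to 348 with a library left out). The 845 that fell became 438 in the larger set and 545 with the block by description number (450 to 847 with a library left out). To look for pairs, each library's deviations from its group mean (log2 CPM of the tested genes) were correlated between knockout and control libraries. Correlations of these deviations for same-numbered libraries were -0.085, -0.149 and 0.051 by title, and -0.478 for the pair numbered 4 by description. For pairs that share neither number they ranged from -0.149 to 0.423. The main fit did not pair libraries by number. The pair numbered 4 is also the smaller set, and what was done to the values before deposit is not recorded. The correlations therefore cannot settle whether the numbers mark libraries that belong together.

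Members that were not called crossed 0. Kcna10 was at -0.17 and Kcnj8 at 0.25 in the larger set. Kcnj8 was also at 0.01 without TMM, 0.02 with the set as a term and 0.07 with the replicate block by title number, and Kcnn2 at -0.07 with the block by description number. With a library left out, log2 fold changes ranged from -0.14 to 0.18 for Kcnj8, -0.26 to 0.20 for Kcne3, -0.03 to 0.15 for Kcnn1 and -0.21 to 0.20 for Kcnn2. The cause was not tested. Low counts limit the precision of Kcnj4 (5 to 23 counts), Kcnj12 (4 to 58), Kcnj3 (9 to 45), Kcnk3 (3 to 64) and Kcna10 (0 to 27).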
